A study of Mus musculus with 18 samples.

Results

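Imprinted genes are expressed mainly from the copy inherited from 1 parent. The 39 imprinted genes described here were chosen by symbol from the gene table of a single-nucleus RNA-seq study of the embryonic mouse forebrain, 39 of the 55335 genes in it. They include genes of the Dlk1-Dio3, Peg3, Peg10, Igf2-H19, Prader-Willi and Angelman, and Airn-Igf2r domains. Forebrains came from embryos at embryonic day 14 (E14) of C57BL/6 mice carrying a frameshift allele of Myt1l, S710fsX, which adds a premature stop codon to this neuronal transcription factor. WT embryos carry no mutant copy, Het embryos 1 and KO embryos 2, and all came from matings of Het parents. There were 3 embryos per genotype, each with libraries titled run 1 and run 2 (18 libraries). The labels do not say what a run was. The runs of an embryo were summed, so the animal is the replicate. The mutation is present in every cell from conception, the strain is inbred, and the counts do not tell the maternal copy from the paternal one, so every value below is the total RNA of a gene and not its imprinting.

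Imprinting is set in the germ line, where DNA methylation marks a control region on the copy of one parent, and it is held through later divisions by factors such as ZFP57, TRIM28 and DNMT1. Imprinted genes lie in clusters in which long noncoding RNAs and protein genes are often expressed from opposite copies: Meg3, Rian and Mirg come from the maternal copy and Dlk1 and Rtl1 from the paternal one. Many of them control growth and placental supply, and in the brain they include a ubiquitin ligase that is paternally silenced in neurons (Ube3a), a silencing antisense RNA over it (Snhg14) and the MAGE proteins Ndn and Magel2, which are lost in Prader-Willi syndrome.

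Of 261143 deposited barcodes, 194373 nuclei passed the limits on UMIs (unique molecular identifiers, the count of captured RNA molecules), genes, mitochondrial reads and doublets, with a median of 2518 UMIs and 1536 genes per nucleus and 42757865 to 73780479 UMIs per animal. Nuclei were clustered with the imprinted genes left out, and 12 classes were named from marker genes as "-like", since a rebuilt name is not the study's own cell type; 22.6% of nuclei stayed unnamed. A level is given as CPM, counts per 1000000 UMIs of that class in 1 animal, and 7 classes had at least 20 nuclei in every animal and were tested. Some facts bear on the groups. The separate genotype tag of the first run reads WT in all 9 libraries, against the titles, and the titles were used. Myt1l RNA was not lower in KO: in excitatory neuron-like nuclei it stood at 1978 to 2255 CPM in WT and 2585 to 2887 CPM in KO, so the RNA level does not check the labels of a frameshift allele. Xist was at 374 CPM in WT replicate 3 and at most 0.72 CPM in the other 8 animals, although the study describes both sexes in each genotype. The diencephalic neuron-like class came almost wholly from Het replicate 1 (736 of 737 nuclei), and 3429 barcodes were shared between libraries of different animals.

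All 39 imprinted genes were detected. Together they took up 1.28% ± 0.0946 (SD, n = 9 animals) of all UMIs in inhibitory neuron-like nuclei, 0.865% ± 0.0714 in Cajal-Retzius-like nuclei, 0.543% ± 0.0279 in excitatory neuron-like nuclei and 0.352% ± 0.00822 in radial glia-like nuclei. The neuronal classes thus stood above the progenitors. Between inhibitory neuron-like and radial glia-like nuclei the larger part of the difference was a single RNA, Meg3. It alone made up 0.561% ± 0.0744 of UMIs in the former and 0.00944% ± 0.00214 in the latter. In Cajal-Retzius-like nuclei Meg3 made up 0.243% ± 0.0485 and in excitatory neuron-like nuclei 0.0793% ± 0.020. There it was the smaller part of the difference from radial glia-like nuclei. Only 3 genes stayed under 5 CPM in all 7 tested classes, namely Rtl1, Zrsr1 and H19, with highest class means of 3.69, 4.30 and 4.73 CPM.

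**Figure D1:**
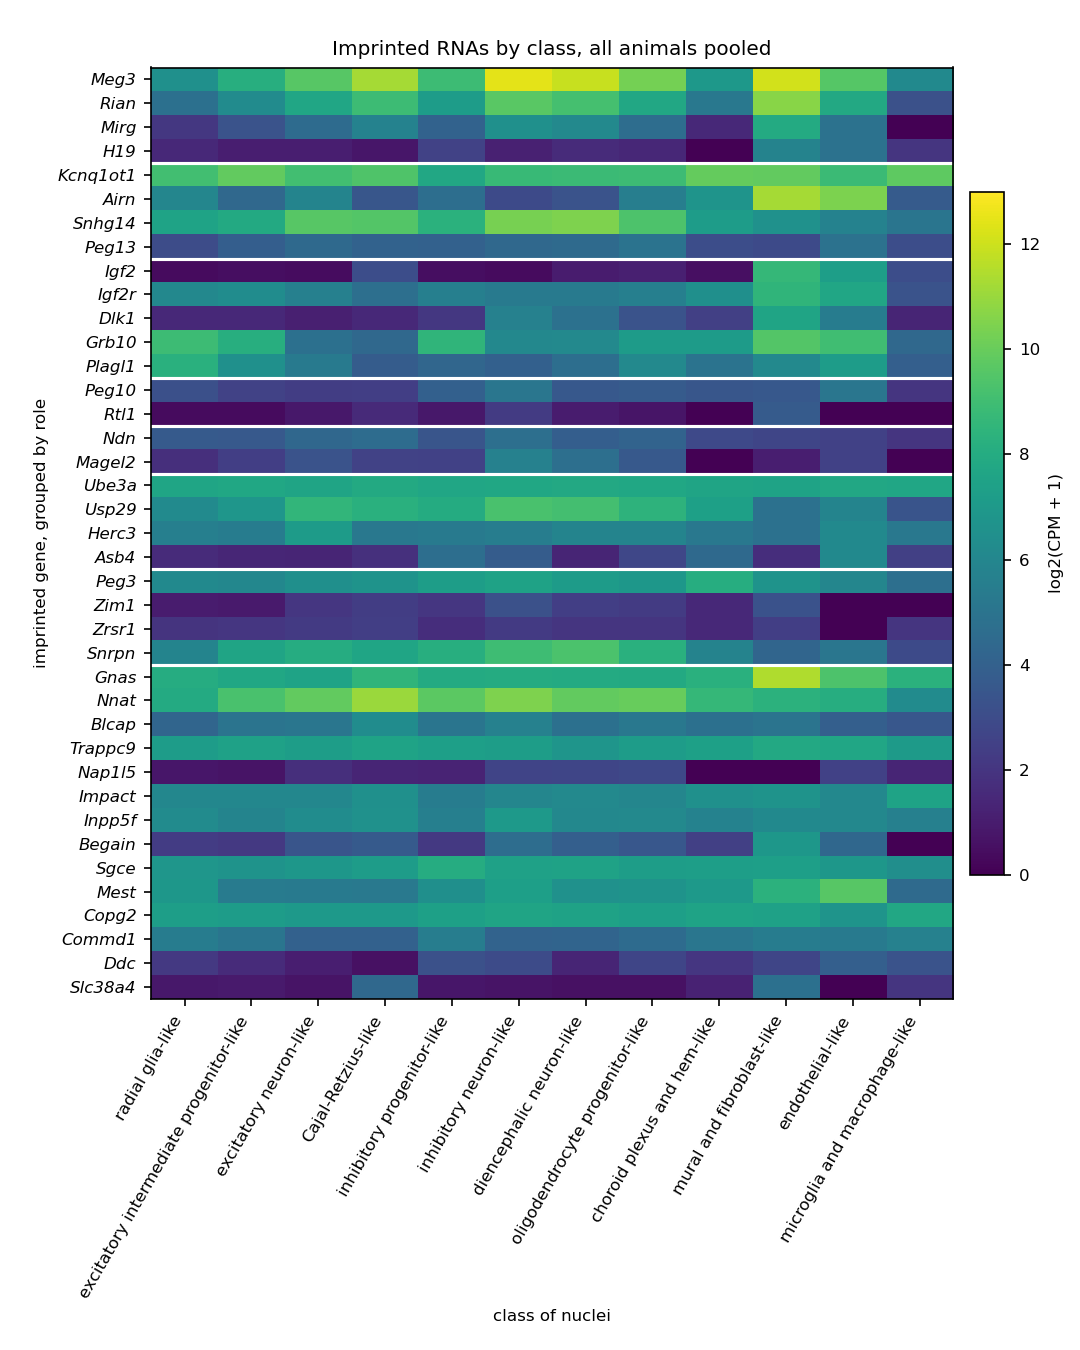
Heat map of the level of the 39 imprinted genes (rows, grouped by role with white lines between the groups) in the 12 named classes of nuclei (columns), as log2(CPM + 1) over all animals pooled. Meg3 is brightest in inhibitory neuron-like nuclei, Igf2, Airn and Gnas stand out in mural and fibroblast-like nuclei, and Ube3a and Trappc9 show nearly the same colour across the row.

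The maternally expressed long noncoding RNAs of the Dlk1-Dio3 domain differed widely over classes. On GRCm38, Meg3 lies at chr12:109541001-109571726, Rian at chr12:109603940-109661716 and Mirg at chr12:109729764-109749460, all on the plus strand, in the order of a single transcribed stretch that hosts small RNAs: Rian holds C/D box snoRNAs and Mirg a cluster of microRNAs. Meg3 ranged over the 9 animals from 4458 through a median of 5737 to 6871 CPM in inhibitory neuron-like nuclei, from 1625 through 2568 to 3024 CPM in Cajal-Retzius-like nuclei and from 498 through 760 to 1155 CPM in excitatory neuron-like nuclei. These 3 classes did not overlap in any animal. Below them came inhibitory progenitor-like nuclei with a mean of 488 CPM, excitatory intermediate progenitor-like nuclei with 282 CPM, choroid plexus and hem-like nuclei with 123 CPM and radial glia-like nuclei with 94.4 CPM, and the ranges of the last 3 overlapped their neighbours. Every animal had more Meg3 in excitatory neuron-like than in inhibitory progenitor-like nuclei, although the ranges of these 2 classes over animals overlapped. The Meg3 level of radial glia-like nuclei was 1.68% ± 0.264 of that in inhibitory neuron-like nuclei, that of Rian 3.42% ± 0.597 and that of Mirg 3.61% ± 0.888. Gad2, an inhibitory neuron gene, stood at 1.24% ± 0.339 on the same scale, with 1.66% in its highest animal. Over the animals Meg3 ran from 1.37 to 2.22% and Gad2 from 0.734 to 1.66%, so these ranges overlapped. In excitatory neuron-like nuclei the same ratio was 14% ± 1.89 for Meg3 and 1.41% ± 0.415 for Gad2.

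A RefSeq start of each of these RNAs is printed because the group moved together in the comparisons that follow. Windows run from 250 bases before to 50 after the RefSeq start on GRCm38.p6, in the direction of transcription. Capitals mark the letters TGCCGC on either strand, GCGGCA in reverse, the methylated motif read by ZFP57. These letters occurred in 12 of the 54 listed starts of the 32 imprinted genes that had a RefSeq window (22.2%) and in 11.6% of all 32851 windows, and a match is a description, not a site. The Meg3 start printed, chr12:109540746-109541045, holds 13 CpG, and a second listed Meg3 start, chr12:109545148-109545447, holds 1 and no TGCCGC. The Rian start, chr12:109603695-109603994, holds none. The window listed for Mirg, chr12:109734731-109735030, holds 10, and it lies inside the gene as GENCODE places it, past the start given above and over the microRNAs miR-668 and miR-485-3p.
Meg3: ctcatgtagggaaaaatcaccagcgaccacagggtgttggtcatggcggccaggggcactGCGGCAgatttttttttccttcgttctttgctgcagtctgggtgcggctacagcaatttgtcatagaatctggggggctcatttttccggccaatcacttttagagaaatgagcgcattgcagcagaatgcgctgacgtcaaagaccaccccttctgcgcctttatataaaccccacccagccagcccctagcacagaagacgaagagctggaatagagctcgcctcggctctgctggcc
Rian: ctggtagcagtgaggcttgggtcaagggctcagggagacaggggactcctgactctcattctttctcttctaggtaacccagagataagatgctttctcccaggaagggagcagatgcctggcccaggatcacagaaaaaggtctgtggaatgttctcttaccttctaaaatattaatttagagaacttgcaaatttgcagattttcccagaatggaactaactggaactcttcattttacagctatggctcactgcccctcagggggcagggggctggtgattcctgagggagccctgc
Mirg: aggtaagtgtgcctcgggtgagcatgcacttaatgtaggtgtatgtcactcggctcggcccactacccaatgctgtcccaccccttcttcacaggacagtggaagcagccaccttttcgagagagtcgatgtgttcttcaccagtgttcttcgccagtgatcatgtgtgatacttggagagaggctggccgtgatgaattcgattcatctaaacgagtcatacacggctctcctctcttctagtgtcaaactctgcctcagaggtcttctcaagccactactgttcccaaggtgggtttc
The letters AAAGTTT, searched on both strands, a core bound by proteins of the MYT1 family, were in 0 of the 54 starts and in 4.74% of all windows, which says only that these letters are absent from these windows. The shorter core AAGTT was in 14 of the 54 starts (25.9%), of 13 genes, and in 39.3% of all windows.

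Rian and Mirg followed Meg3 closely. Over the 27 clusters of at least 200 nuclei, Spearman's rho was 0.985 between Meg3 and Rian and 0.979 between Meg3 and Mirg, as a description without a test, since the clusters share animals and depth. The ratio of these RNAs was not constant: Rian was 1.94 ± 0.12 log2 units below Meg3 (SD, n = 9) in excitatory neuron-like nuclei and 2.79 ± 0.11 below it in inhibitory neuron-like nuclei, with no correction for gene length. Among 7122 genes compared, the patterns most like that of Meg3 belonged to Gm37899 (rho 0.980), B830012L14Rik (0.976) and Tro (0.94). The highest Meg3 level of any larger cluster was in an unnamed cluster led by Car10 and Samd3, with 8792 CPM, 1022 CPM of Rian and 104 CPM of Mirg.

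**Figure D2:**
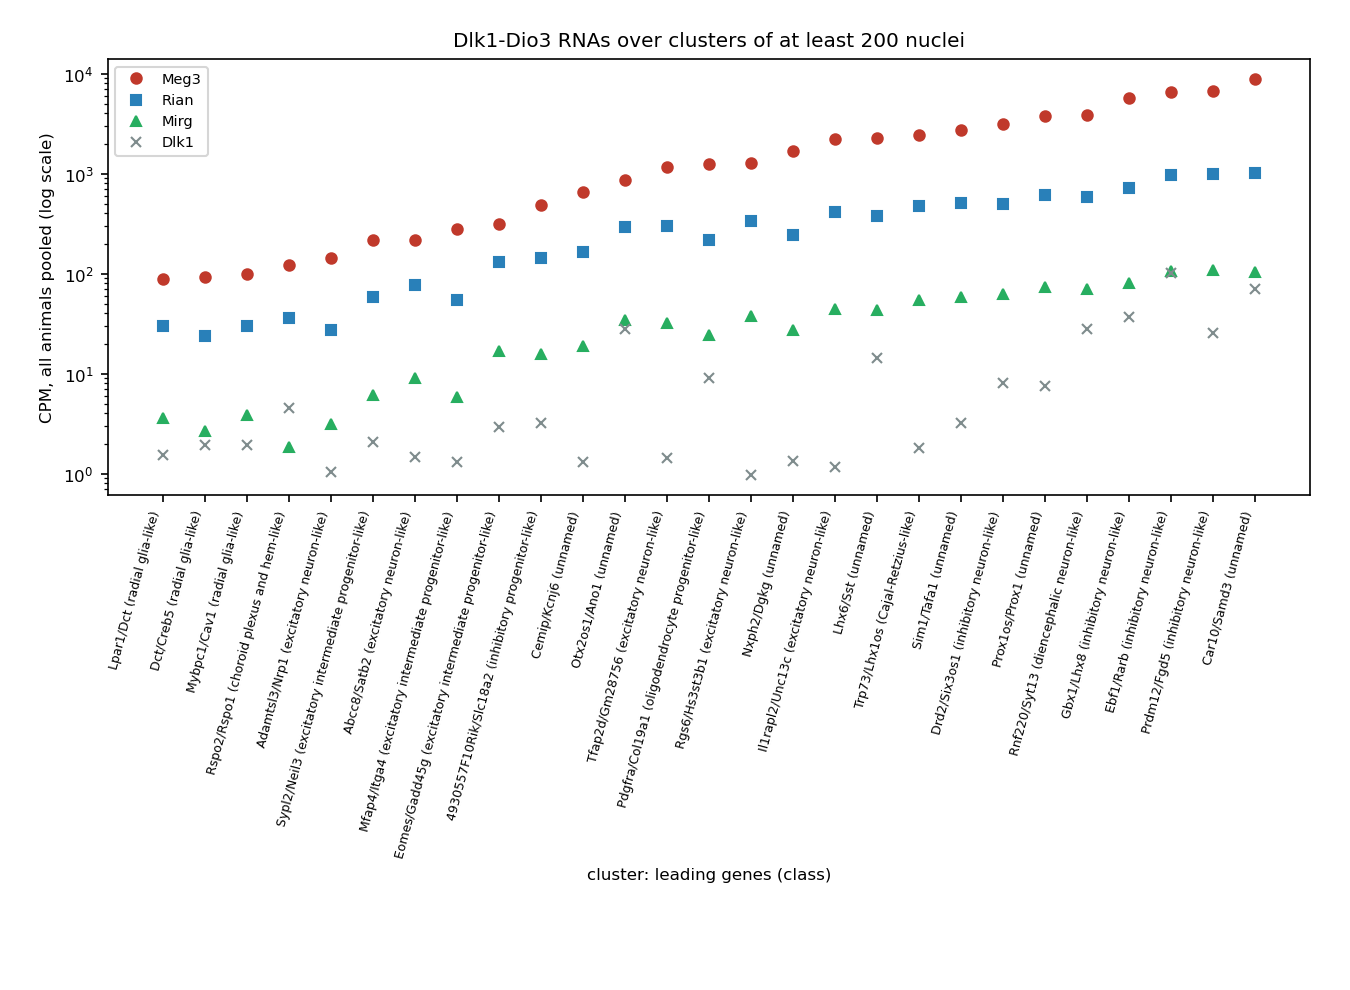
Levels of Meg3, Rian, Mirg and Dlk1 (CPM over all animals pooled, log axis) in the 27 clusters of at least 200 nuclei, ordered by Meg3 and labelled by their leading genes and class. Rian and Mirg climb with Meg3 from radial glia-like to inhibitory neuron-like clusters, while Dlk1 is scattered and lies near 1 CPM in several excitatory neuron-like clusters with over 1000 CPM of Meg3.

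The Mirg stretch holds 14 RefSeq microRNA hairpins with 26 mature microRNAs and 25 distinct seeds. The mature microRNAs were not measured here. Examples known from neurons are printed with the seed, bases 2 to 8, in capitals (RefSeq, GRCm38.p6, plus strand), from chr12:109733781-109733802, chr12:109734145-109734166, chr12:109734946-109734967 and chr12:109743764-109743784 in that order.
miR-382-5p: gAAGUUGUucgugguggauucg
miR-134-5p: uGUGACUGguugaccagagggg
miR-485-3p: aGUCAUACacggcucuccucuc
miR-410-3p: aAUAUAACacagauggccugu

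Of the protein genes of the Dlk1-Dio3 domain, Dlk1 and Begain followed Meg3 less closely than Rian and Mirg did. Over the 27 clusters their rho with Meg3 was 0.569 and 0.804. Dlk1, a transmembrane Notch-like ligand that restrains differentiation, ranged from 43.8 through 51.7 to 61.9 CPM in inhibitory neuron-like nuclei and from 0.725 through 0.988 to 2.52 CPM in excitatory neuron-like nuclei. The latter level was 2.45% ± 1.30 of the former, next to 1.41% ± 0.415 for Gad2. No animal came near overlap. Within the inhibitory neuron-like class it was highest in the cluster led by Ebf1 and Rarb, at 101 CPM, and lowest in the cluster led by Drd2 and Six3os1, at 8.10 CPM. The clusters led by Lhx6 and Sst, by Nxph2 and Dgkg and by Prox1os and Prox1 stayed unnamed and lie outside this class, with 14.4, 1.34 and 7.60 CPM of Dlk1 and 2285, 1666 and 3741 CPM of Meg3. Rtl1, a retrotransposon-derived gene with a role in placental capillaries, had a mean of 3.69 CPM in inhibitory neuron-like nuclei and is antisense to a run of microRNAs that pair with it, so its reads are uncertain without strand. Begain, a postsynaptic protein gene upstream of Dlk1, stood at 24.4 CPM ± 3.18 in inhibitory neuron-like and 10.02 CPM ± 1.82 in excitatory neuron-like nuclei.

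The paternally expressed long noncoding RNAs each had a pattern of their own. Snhg14, the antisense RNA of the Angelman region, stood at 1296 CPM ± 96.4 (SD, n = 9) in inhibitory neuron-like nuclei, 804 ± 50.3 in excitatory neuron-like nuclei and 186 ± 12.3 in radial glia-like nuclei. Ube3a, the ubiquitin ligase that Snhg14 runs into, had class means of 181 to 233 CPM and so was close to level. The log2 ratio of Snhg14 to Ube3a was thus 2.58 ± 0.08 in inhibitory neuron-like and -0.10 ± 0.09 in radial glia-like nuclei, with no correction for length. Kcnq1ot1, which silences its neighbours in cis, was highest in choroid plexus and hem-like nuclei at 968 CPM ± 159 and in excitatory intermediate progenitor-like nuclei at 936 ± 65.7, and lowest in inhibitory progenitor-like nuclei at 229 ± 27.8.

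Airn, the paternal antisense RNA that silences Igf2r in the placenta and most tissues, ran from 47.8 through 55.9 to 66.3 CPM in excitatory neuron-like nuclei and from 5.58 through 6.26 to 8.11 CPM in inhibitory neuron-like nuclei. The classes did not overlap. Igf2r, the receptor that clears IGF2, moved less, from 40.3 CPM ± 2.97 in inhibitory neuron-like to 50.01 ± 4.96 in excitatory neuron-like nuclei. Both overlap on opposite strands at chr17:12741311-12860136 (Airn) and chr17:12682406-12769664 (Igf2r), and no source used here says whether counting used strand, so reads of the shared part may sit with either gene.

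Grb10 and Plagl1 had their highest mean of the tested classes in radial glia-like nuclei. Grb10, an adaptor that dampens insulin and IGF receptor signals, stood at 490 CPM ± 19.1 in radial glia-like, 368 ± 16.4 in inhibitory progenitor-like, 67.2 ± 5.84 in inhibitory neuron-like and 27.7 ± 3.94 in excitatory neuron-like nuclei. Its level in excitatory neurons was 5.65% ± 0.681 of that in radial glia, and Hes5, a radial glia gene, was at 3.07% ± 0.672 on the same scale. Plagl1, a zinc finger factor that controls a network of imprinted growth genes, stood at 309 CPM ± 18.2 in radial glia-like nuclei, 92.0 ± 5.97 in those like excitatory intermediate progenitors, 41.0 ± 6.96 in excitatory neuron-like and 15.3 ± 2.96 in inhibitory neuron-like nuclei. The last value is 4.96% ± 0.965 of the radial glia level, next to 4.06% ± 1.47 for Hes5, and cannot be told apart from background. Igf2 itself had a mean under 1 CPM in every tested class except Cajal-Retzius-like nuclei (7.74 ± 4.30).

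The Grb10 start printed, chr11:12037371-12037670 (minus strand), holds 45 CpG, and a second listed one, chr11:12027922-12028221, holds 9 and no TGCCGC. The start of Plagl1 at chr10:13090582-13090881 (plus strand) holds 26, against a median of 7 over all windows, while the Airn start at chr17:12741061-12741360 (plus strand) holds 3. They are shown because Grb10 and Plagl1 were the imprinted genes furthest below 0 in excitatory neurons against radial glia, and Airn the one furthest above 0 in excitatory against inhibitory neurons. Capitals again mark TGCCGC on either strand, and Airn has none.
Grb10: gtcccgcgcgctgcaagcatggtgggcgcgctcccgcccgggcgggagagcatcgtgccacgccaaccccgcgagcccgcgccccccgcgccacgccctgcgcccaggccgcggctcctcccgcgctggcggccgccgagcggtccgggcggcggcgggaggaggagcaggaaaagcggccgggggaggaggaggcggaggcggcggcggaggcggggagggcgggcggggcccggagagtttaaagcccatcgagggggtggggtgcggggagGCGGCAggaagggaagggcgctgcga
Plagl1: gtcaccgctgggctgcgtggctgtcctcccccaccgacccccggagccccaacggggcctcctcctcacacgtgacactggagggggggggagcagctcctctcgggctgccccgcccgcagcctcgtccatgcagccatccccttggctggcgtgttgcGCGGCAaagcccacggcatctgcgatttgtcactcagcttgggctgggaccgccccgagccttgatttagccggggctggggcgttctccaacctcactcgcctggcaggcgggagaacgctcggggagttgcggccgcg
Airn: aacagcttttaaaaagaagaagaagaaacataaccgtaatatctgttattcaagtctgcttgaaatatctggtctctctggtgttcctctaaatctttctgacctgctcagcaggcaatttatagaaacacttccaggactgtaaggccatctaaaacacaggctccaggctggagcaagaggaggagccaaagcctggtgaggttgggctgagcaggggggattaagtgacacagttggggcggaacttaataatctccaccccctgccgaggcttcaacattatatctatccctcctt

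Ndn, Magel2, Snrpn and Usp29 had their highest mean of the tested classes in inhibitory neuron-like nuclei. Ndn (chr7:62346569-62350262, plus strand) ranged from 12.1 through 26.5 to 35.6 CPM over the 9 animals in inhibitory neuron-like nuclei, from 6.25 through 21.4 to 26.3 CPM in excitatory neuron-like nuclei and from 5.97 through 11.6 to 17.2 CPM in radial glia-like nuclei, so the classes overlapped between animals. By pooled cluster, Magel2 ran from 12.9 to 106 CPM in the inhibitory neuron-like class and from 1.97 to 19.8 CPM in the excitatory neuron-like one, with overlap. The unnamed clusters led by Nxph2 and Dgkg, by Lhx6 and Sst and by Prox1os and Prox1 stood at 4.65, 38.5 and 18.1 CPM. Its class means lay further apart than those of Ndn, with 52.4 CPM ± 16.7 in inhibitory neuron-like, 9.26 ± 3.91 in excitatory neuron-like and 2.41 ± 0.750 in radial glia-like nuclei. Snrpn stood at 498 CPM ± 26.1, 268 ± 14.9 and 58.4 ± 7.06 in the same classes. Usp29 stood at 621 CPM ± 90.1, 383 ± 26.9 and 75.3 ± 5.90. Peg3, a zinc finger gene of maternal behaviour and growth, stood at 180 CPM ± 17.4, 87.4 ± 5.23 and 71.7 ± 5.10, and its highest mean was 257 CPM ± 98.8, in choroid plexus and hem-like nuclei. Inpp5f, a phosphoinositide phosphatase gene, stood at 125 CPM ± 14, 78.9 ± 9.35 and 77.3 ± 3.67. Of the tested classes Asb4 was highest in inhibitory progenitor-like nuclei, at 24.5 CPM ± 5.99. The patterns most like that of Ndn over the 27 clusters were those of Cdh18 (rho 0.877), Rtn1 (0.872) and Ids (0.869). For Igf2 no such genes are named, since it stood at 0.163 to 1.18 CPM in each of these clusters but the Cajal-Retzius-like one (7.49 CPM).

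Excitatory neuron-like nuclei were next compared with radial glia-like nuclei within the same 9 animals, by edgeR's quasi-likelihood test on summed counts with the animal as a block. A gene was called at an adjusted p under 0.05 and a log2 fold change beyond 1. Of 36 imprinted genes tested, 14 were higher and 5 lower in the neurons (19 of 36, beside 33.1% of all 17550 genes called, 17% higher and 16.1% lower), and their median log2 fold change was 0.39, against 0.02 over all genes. By edgeR Meg3 was 3.40 log2 units higher (SE 0.06, adjusted p 8.33e-18), Rian 3.23 and Mirg 3.11. The Meg3 level of radial glia-like nuclei is near the background given above for Gad2, and how much of it is background was not tested. The other genes past 2 log2 units were Usp29 (2.69), a deubiquitinase gene next to Peg3, Snrpn (2.54), a splicing protein gene, Snhg14 (2.45), Magel2 (2.23), a partner of TRIM ubiquitin ligases, Nnat (2.21), a membrane protein gene of neuronal differentiation, and Zim1 (2.01), a zinc finger gene. Grb10 had the largest fall, with a log2 fold change of -3.81 (SE 0.05, adjusted p 2.83e-19), and Plagl1 followed at -2.59. The remaining genes that were lower were Ddc (-1.25), the decarboxylase of dopamine and serotonin synthesis, Commd1 (-1.15), a copper and NF-kappa B regulator, and Mest (-1.08), a hydrolase gene of growth. Zim1 and Ddc were near the floor, with means of 3.27 and 1.12 CPM in the neurons and 1.03 and 3.28 CPM in radial glia-like nuclei. Mirg and Magel2 were near it in radial glia-like nuclei, with means of 3.28 and 2.41 CPM. Ndn missed the limit at 1.00 when rounded.

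Along the inhibitory lineage, 16 of 37 imprinted genes were higher and 4 lower in inhibitory neuron-like than in inhibitory progenitor-like nuclei (27.9% of 14221 genes called, 17.1% higher and 10.8% lower). Their median log2 fold change was 0.84, against -0.01 over all genes. Dlk1 led with 4.14 (SE 0.12, adjusted p 9.08e-21 by edgeR), followed by Meg3 with 3.69, Magel2 with 3.57 and Begain with 2.96. Grb10 (-2.30), Airn (-1.79), H19 (-1.73), a noncoding RNA of growth restraint, and Commd1 (-1.22) were lower. H19 was near the floor, with means of 1.26 CPM in the neurons and 4.73 CPM in the progenitors. Dlk1, Magel2 and Begain were near it in the progenitors, with means of 3.20, 4.66 and 3.58 CPM. The size of their fold changes is therefore uncertain. Airn thus fell along this lineage, whereas along the excitatory one its log2 difference was 0.22, not called, and of the opposite sign as a plain ratio of CPM.

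Between the neuronal classes, 3 of 37 imprinted genes were higher and 14 lower in excitatory than in inhibitory neuron-like nuclei (14.3% of 17135 genes called, 5.71% higher and 8.54% lower), with a median log2 fold change of -0.62 against 0.01 over all genes. Airn (3.15, SE 0.07), Herc3 (1.68), a HECT ubiquitin ligase gene, and Plagl1 (1.47) were higher in excitatory neurons. Dlk1 (-5.37, SE 0.12), Asb4 (-2.98), a substrate receptor of a ubiquitin ligase, Peg10 (-2.96), a retrotransposon-derived capsid gene, and Meg3 (-2.81) were the furthest below. The unnamed clusters led by Nxph2 and Dgkg, by Lhx6 and Sst and by Prox1os and Prox1 are not in this comparison. There Peg10 stood at 4.09, 18.7 and 8.79 CPM and Asb4 at 1.79, 7.93 and 2.03 CPM. The excitatory neuron-like means were 4.19 CPM for Peg10 and 1.60 CPM for Asb4. Plagl1 stood at 8.93, 39.03 and 14.965 CPM in these unnamed clusters, beside an excitatory neuron-like mean of 41.02 CPM. By pooled cluster it ran from 27.04 to 67.49 CPM in the excitatory neuron-like class. Its level in the cluster led by Lhx6 and Sst thus lay within the excitatory range, and the levels in the other unnamed clusters lay below it. The lower level of Plagl1 and of Dlk1 is near the background given above for Hes5 and Gad2, so the size of their fold changes is uncertain. Herc3 ranged from 132 through 138 to 160 CPM in excitatory and from 41.3 through 44.6 to 52.3 CPM in inhibitory neuron-like nuclei. Peg10 ranged from 3.32 through 3.55 to 6.95 CPM in the former and from 22.8 through 34.8 to 44.2 CPM in the latter. Neither gene overlapped between the classes in any animal.

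These fold changes rest on TMM scaling, which centres the bulk of genes, and they sit above the plain ratio of CPM. The median shift over imprinted genes of at least 5 CPM was 0.34 log2 units for excitatory neurons against radial glia, 0.16 along the inhibitory lineage and 0.04 between neurons. No called gene changed direction between the scales, but 4 uncalled genes did in the first comparison: Copg2, Ube3a, Kcnq1ot1 and Airn. Trappc9 did so in the other comparisons.

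**Figure D3:**
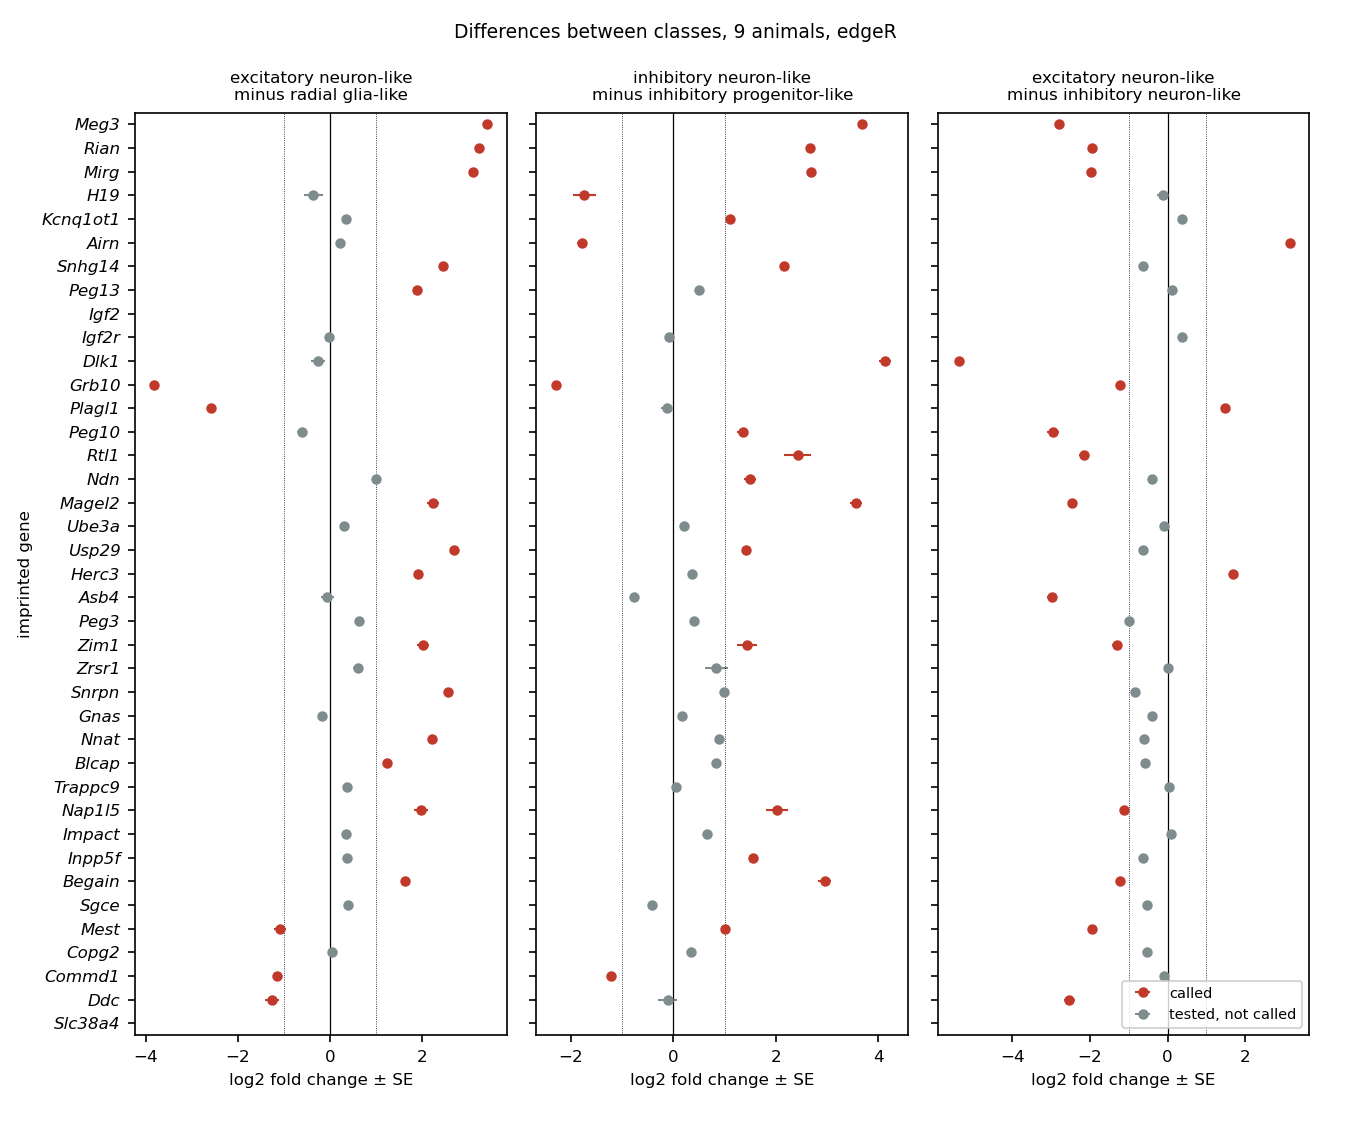
Log2 fold changes ± SE of the imprinted genes in the 3 comparisons between classes (edgeR, 9 animals, animal as a block), red where called and grey where tested but not called, with dotted lines at 1 and -1. Meg3, Rian and Mirg lie far to the right in both neuron against progenitor comparisons and to the left in the excitatory against inhibitory one, and Grb10 lies on the opposite side of 0 in the first 2 panels.

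Among genes that moved little, Copg2, a coat protein gene antisense to Mest, had class means of 127 to 188 CPM, and Trappc9, a trafficking gene that holds Peg13 in an intron, had 145 to 183 CPM. Impact, a regulator of the GCN2 stress kinase, had 43.7 to 92.3 CPM. Sgce, the sarcoglycan gene of myoclonus dystonia, was highest in inhibitory progenitor-like nuclei at 261 CPM ± 12.2 and lowest in excitatory intermediate progenitor-like nuclei at 102 ± 7.92. Gnas, which encodes the stimulatory G protein alpha subunit, had 183 to 367 CPM. Nnat lies inside an intron of Blcap on the opposite strand, and these genes moved in step over clusters (rho 0.963), which the counting of strand could also give and which was not tested. Slc38a4, an amino acid transporter gene, was at 19.7 CPM ± 7.01 in Cajal-Retzius-like nuclei and under 1 CPM in both neuronal classes and radial glia.

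Several imprinted genes were highest outside the neural classes, in classes too small to test. In mural and fibroblast-like nuclei (326 nuclei, 15 to 93 per animal), Igf2 reached 405 CPM over all animals (exact Poisson 95% interval 365 to 449, for counting error only), and its lowest animal, at 170 CPM, was above every tested class mean. Airn reached 2394 CPM (2294 to 2497) with Igf2r at 360 (322 to 401), Gnas 2839 (2730 to 2951), Rian 1654 (1571 to 1740), Mirg 248 (216 to 282), Dlk1 195 (167 to 226) and Grb10 747 (691 to 805). All 9 animals were above the highest tested class mean for each of these genes. Meg3, at 4410 CPM (4275 to 4549), was not, with 1 of 9 animals above the inhibitory neuron mean. H19 stood at 55.1 CPM (40.9 to 72.6) with 2 animals at 0. The class held a cluster led by Ranbp3l and Col3a1, with 66.7% of its 81 nuclei from 1 animal. Its pooled levels were 45.9 CPM for Dlk1, 1041 for Airn and 163 for H19. The clusters led by Abcc9 and Ednra had 223 and 248 CPM of Dlk1, 3102 and 2457 of Airn and 14.7 and 35.0 of H19.

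In endothelial-like nuclei (70 nuclei over 8 animals) the pooled level was above every tested class mean for Mest at 776 CPM (661 to 905), Airn at 1360 (1207 to 1528), Igf2 at 153 (105 to 216) and Asb4 at 71.8 (40.2 to 119). In microglia and macrophage-like nuclei (289 nuclei) Impact stood at 185 CPM (153 to 220), above the highest tested class mean in 9 of 9 animals, while Meg3 was at 71.0 CPM (52.2 to 94.4) and Mirg at 0 UMIs, which allows up to 5.57 CPM by the same interval. Igf2r stood at 206 CPM in endothelial-like nuclei. By pooled level Igf2, Airn and Igf2r were above every tested class mean in both mural and fibroblast-like and endothelial-like nuclei. So were H19, Grb10, Mest, Gnas and Trappc9.

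The genotypes were compared within each class by edgeR's quasi-likelihood test on the 9 animals, with a call at an adjusted p under 0.05 and a log2 fold change beyond 0.2. Same-numbered animals of different genotype deviated together over all nuclei (correlations of 0.214 to 0.544 in 9 of 9 pairs), so the fit with the replicate number as a block is given where it changes a call. In bulk sums of a class, fewer nuclei of a subtype and less RNA per nucleus cannot be told apart. Excitatory neuron-like nuclei held most of the calls between KO and WT: 4 of 38 imprinted genes tested, 1 higher and 3 lower (1.33% of 18864 genes called, 0.811% higher and 0.52% lower), and 7 with the block, 2 higher and 5 lower (7.37% of genes, 3.81% higher and 3.57% lower). DESeq2 called 5 of 39 (0.949% of genes). Without the block the count rests on single animals: it was 0 without KO replicate 2, 1 without WT replicate 1, WT replicate 3 or KO replicate 1, and 2 without Het replicate 3.

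The 3 genes that were lower in the KO are the maternally expressed RNAs of the Dlk1-Dio3 domain. Meg3 stood at 1155, 827 and 902 CPM in WT replicates 1 to 3, at 965, 709 and 760 in Het and at 575, 498 and 745 in KO. Every KO animal was below every WT animal, and the Het animals overlapped both groups. The log2 fold change between KO and WT was -0.65 (SE 0.14, adjusted p 0.0421) and with the block -0.64 (SE 0.08, adjusted p 2.15e-05, edgeR).

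Rian stood at 283, 202 and 232 CPM in WT, 227, 196 and 213 in Het and 160, 144 and 175 in KO. Mirg stood at 29.95, 23.7 and 25.4 CPM in WT, 26.5, 22.1 and 23.4 in Het and 16.2, 14.05 and 19.9 in KO. For both RNAs all 3 KO animals lay below all WT and Het animals. By edgeR the log2 fold change was -0.56 for Rian (SE 0.09, adjusted p 0.0114) and -0.63 for Mirg (SE 0.11, adjusted p 0.0161).

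Airn was the 1 gene called higher. It stood at 49.0, 55.1 and 47.8 CPM in WT, 53.6, 57.9 and 55.9 in Het and 63.3, 66.3 and 63.0 in KO, with every KO animal above every other animal and a log2 fold change of 0.36 (SE 0.08, adjusted p 0.0451 by edgeR). Its partner Igf2r differed by 0.08 (SE 0.12) and was not called.

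The block added Ndn, Begain and Plagl1. Ndn, a MAGE protein that binds E2F1 and holds neurons out of the cell cycle, stood at 14.5, 26.3 and 26.2 CPM in WT, 10.8, 22.1 and 24.4 in Het and 6.25, 12.7 and 21.4 in KO. With the runs summed, replicate 1 was lowest in all 3 genotypes, and KO was lower than WT within each of the 3 numbers. The WT and KO ranges thus overlapped while the paired differences had 1 sign. The KO to WT ratio was 0.430, 0.483 and 0.818 in replicates 1 to 3. In run 1 alone replicate 1 was not lowest in WT (11.3, 11.02 and 15.4 CPM), and in run 2 it was (15.7, 29.3 and 28.9 CPM). The log2 fold change was -0.69 (SE 0.36, adjusted p 0.435) without the block and -0.74 (SE 0.11, adjusted p 0.000179) with it, both by edgeR. In separate fits of the runs it was -0.49 in run 1 and -0.67 in run 2 (adjusted p 0.794 and 0.479, edgeR). Of the settings run, only the block and no filter on low counts called it.

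Begain stood at 12.2, 10.02 and 11.1 CPM in WT, 12.7, 8.68 and 9.80 in Het and 9.91, 6.96 and 8.72 in KO, with WT and KO just apart and a log2 fold change of -0.37 (SE 0.10, adjusted p 0.0242) with the block and an adjusted p of 0.287 without it (edgeR). Plagl1 stood at 37.5, 34.8 and 35.4 CPM in WT, 41.3, 35.1 and 40.1 in Het and 54.0, 51.1 and 39.9 in KO, with WT and KO apart as well and a log2 fold change of 0.44 in both fits and an adjusted p of 0.0643 without and 0.00122 with the block (edgeR). Magel2, the other MAGE gene of the Ndn domain, was not called with the block (-0.38, SE 0.14, adjusted p 0.0915 by edgeR).

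**Figure D4:**
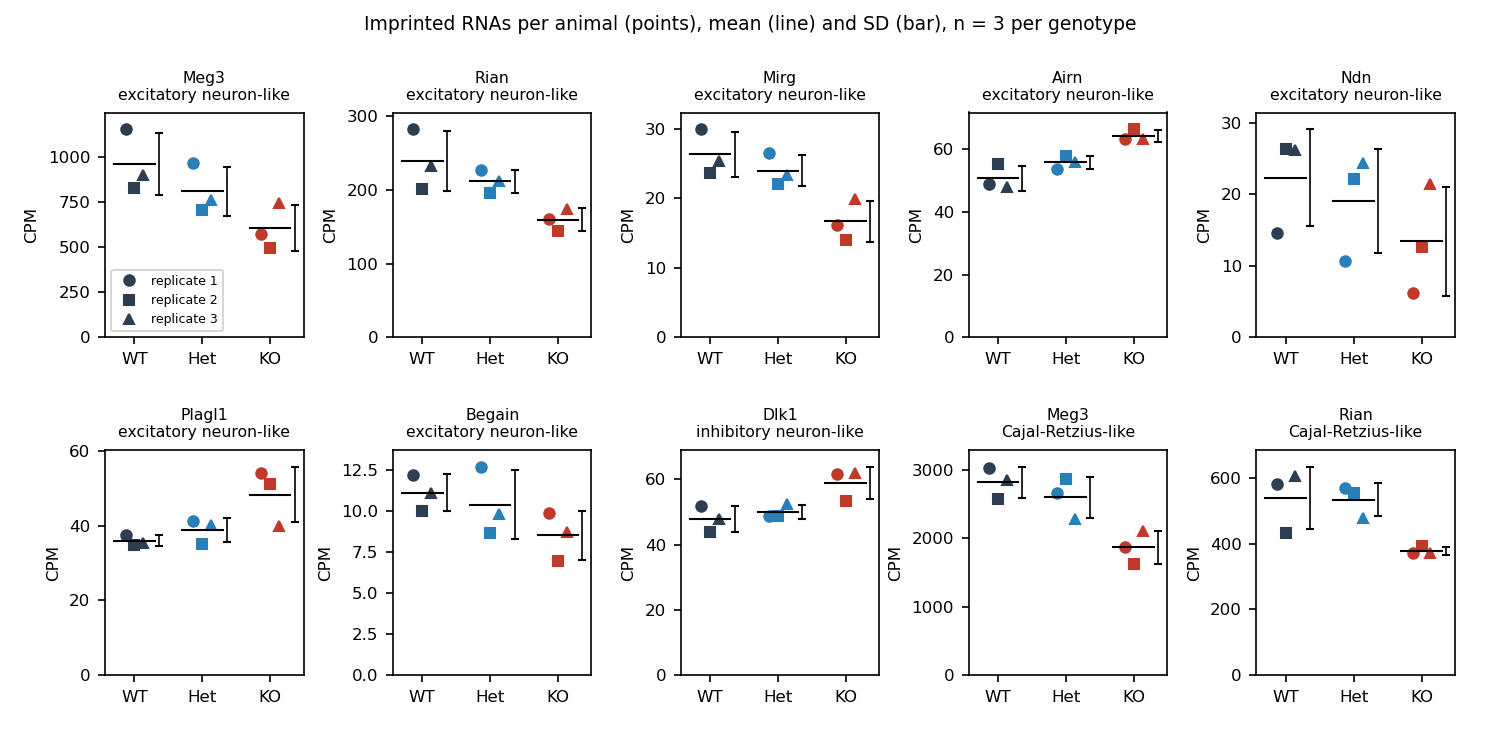
CPM of 10 gene and class pairs in each animal (points; circle, square and triangle for replicates 1, 2 and 3), with the genotype mean (line) and SD (bar), n = 3 per genotype, each axis starting at 0. In excitatory neuron-like nuclei Meg3, Rian and Mirg are lower in all KO than in all WT animals and Airn is higher, whereas the Ndn points of replicate 1 lie lowest in each genotype.

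Counted by animals, 5 imprinted genes had all KO below all WT in excitatory neuron-like nuclei (Begain, Meg3, Rian, Mirg and Peg13) and 4 had all KO above (Plagl1, Ddc, Commd1 and Airn), 9 of 38, where 18% of all 18864 genes did not overlap (9.75% lower, 8.21% higher). The share of imprinted genes is near that background. The median log2 fold change of all imprinted genes tested was -0.01, as over all genes. The members of the Meg3 and Airn domains that neither fit called were Dlk1, with a log2 fold change of 0.03 (SE 0.49), Rtl1 with -0.51 (SE 0.31) and Igf2r with 0.08 (SE 0.12). In the domain of Ndn, Magel2 was at -0.43 (SE 0.33), Snrpn at -0.01, Snhg14 at -0.03 and Ube3a at -0.02.

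The 5 clusters that make up the excitatory neuron-like class differed widely in Meg3, from a WT mean of 165 CPM in the cluster led by Adamtsl3 and Nrp1 to 2529 CPM in the small cluster led by Il1rapl2 and Unc13c. Meg3, Rian, Mirg, Ndn and Begain had a lower KO than WT mean in all 5 clusters, with log2 differences of -0.38 to -0.77 for Meg3, -0.38 to -0.76 for Rian and -0.33 to -0.88 for Mirg, and the WT and KO animals did not overlap in 4, 4 and 3 of them, and in 1 each for Ndn and Begain. Plagl1 was higher in all 5 and Airn in 4 of 5, without overlap in 2 and 3. The share of all genes without overlap was not taken in single clusters, and it was 18% in the class sum. These genes were chosen by their calls in the sum of the same clusters and animals, so the clusters are not independent support. The share of the cluster with the highest Meg3 was 4.30% ± 0.776 of the class in WT and 3.02% ± 0.399 in KO (SD, n = 3), and that of the cluster led by Tfap2d was 21.6% ± 1.91 and 19.7% ± 2.39. The part of this change of mix in the class result was not tested, and the differences within clusters are those given above.

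Markers of other cell types were summed in the same class. The 14 inhibitory neuron markers summed to 1949 to 2074 CPM in WT and 2063 to 2291 in KO and overlapped, and Gad2 lay between 12.8 and 21.2 CPM in both. The 10 intermediate progenitor markers (445 to 466 CPM in WT, 472 to 507 in KO) and the 10 diencephalic neuron markers (213 to 239 and 259 to 319) did not overlap, and their part in the results was not tested. Diencephalic neuron-like nuclei themselves had a pooled Meg3 level of 3896 CPM.

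In separate fits of the 2 runs, the log2 fold change of Meg3 in excitatory neuron-like nuclei was -0.57 in run 1 and -0.62 in run 2, that of Rian -0.46 and -0.54, that of Mirg -0.59 and -0.60 and that of Airn 0.32 and 0.38. Directions held in both, with adjusted p of 0.797, 0.749, 0.662 and 0.434 in the far smaller run 1 (37988 of the nuclei) and 0.0174, 0.00772, 0.0168 and 0.0547 in run 2 (edgeR). In run 1 alone the WT and KO animals overlapped for Meg3 (330 to 1004 CPM in WT, 310 to 523 in KO), Rian (105 to 243 and 98.1 to 138) and Mirg (11.3 to 25.2 and 10.2 to 13.7) but not for Airn, and in run 2 none of the 4 overlapped. The level itself differed between the runs of an animal. Meg3 stood at 1004, 330 and 536 CPM in WT replicates 1 to 3 in run 1 and at 1208, 923 and 991 in run 2. In KO it stood at 417, 310 and 523 CPM in run 1 and at 643, 551 and 806 in run 2. The cause of this shift was not tested.

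The Het mean lay between the WT and KO means for each of the 7 genes called with the block, while Het animals overlapped the WT range for each, and no imprinted gene was called between Het and WT in this class with or without the block (0 of 18864 genes by edgeR without it, 0.0583% with it). At an unadjusted p under 0.05 edgeR found 2 of 38 imprinted genes there (3.66% of genes), and DESeq2 called 0. Between KO and Het none was called either (0.0106% of genes), with 6 of 38 at an unadjusted p under 0.05 (6.33% of genes) and 2 called by DESeq2 (0.139% of genes). With the block 4 were lower in KO than in Het (1.33% of genes, 0.631% lower): Meg3 (-0.41, adjusted p 0.00940), Rian (-0.40, adjusted p 0.000609), Mirg (-0.50, adjusted p 0.00265) and Ndn (-0.50, adjusted p 0.0286), by edgeR. In separate fits of the runs the Ndn difference was -0.30 in run 1 and -0.54 in run 2, and neither was called.

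Cajal-Retzius-like nuclei, the early Reelin-secreting neurons of the marginal zone, also had less Meg3 in the KO. It stood at 3024, 2568 and 2858 CPM in WT, 2659, 2863 and 2276 in Het and 1871, 1625 and 2110 in KO, with all KO animals below all others. Meg3 was the 1 imprinted gene of 27 called between KO and WT (0.358% of 8653 genes by edgeR, with 2 called by DESeq2 beside 0.146%), with a log2 fold change of -0.58 (SE 0.11, adjusted p 0.0185, edgeR). Rian stood at 581, 432 and 607 CPM in WT, 570, 554 and 477 in Het and 372, 393 and 372 in KO, again with KO lowest throughout. Its log2 fold change was -0.50 (SE 0.12) with an adjusted p of 0.0709 without and 0.0270 with the block (edgeR; 1.09% of genes called with the block). In this class only 4 of the 9 same-numbered pairs of animals had a correlation over 0.1 (0.0211 to 0.175). Mirg, at a log2 fold change of -0.62 (SE 0.24), was not called in either fit (adjusted p 0.373 without and 0.204 with the block, edgeR). The summed level of the immediate early genes, which respond to handling, was 24.2 to 27.9 CPM in WT and 15.9 to 17.9 CPM in KO nuclei of this class, and that of the inhibitory progenitor markers 69.6 to 82.9 CPM in WT and 46.4 to 62.9 CPM in KO. The other marker lists overlapped between these genotypes, and the part of both lists in the result was not tested.

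In that class 7 imprinted genes had all KO below all WT animals and 1 above, of 27, where 14% of genes did not overlap (6.92% lower, 7.04% higher). The 7 were Peg3, Snhg14, Begain, Meg3, Rian, Mirg and Impact, and Gnas was the 1 above. Between KO and Het none was called (0.0693% of genes, 6 of 27 at an unadjusted p under 0.05 beside 7.03% of genes, 1 called by DESeq2, beside 0.0599% of genes), and the block called Meg3 (-0.48, adjusted p 0.0306) and Rian (-0.49, adjusted p 0.0444), both lower in KO (edgeR; 0.52% of genes). The Meg3 call was lost without WT replicate 1, WT replicate 3 or KO replicate 2. Each animal gave 147 to 311 nuclei of this class.

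Inhibitory neuron-like nuclei, where Meg3 is most abundant, gave no call without the block (0 of 37, beside 0.0295% of 16929 genes; 2 at an unadjusted p under 0.05, where 5.65% of genes were, and 0 by DESeq2, beside 0.038% of genes). With it Dlk1 was called higher in KO (0.484% of genes). Dlk1 stood at 51.7, 43.8 and 47.7 CPM in WT, 48.8, 48.9 and 52.4 in Het and 61.7, 53.2 and 61.9 in KO, with KO above all others and a log2 fold change of 0.33 (SE 0.07, adjusted p 0.0387, edgeR). Run by run this was 0.11 in run 1 and 0.39 in run 2. The KO mean of Dlk1 was higher in all 4 clusters of the class, by 0.21 to 0.48, but WT and KO animals overlapped in each of them, and the share of the cluster with the highest Dlk1 varied from 34.5 to 37.2% of the class in WT and from 28.3 to 43.1% in KO. Meg3 had a log2 fold change of -0.27 (SE 0.10) without a call, and was lower in all 4 clusters of the class by -0.29 to -0.39.

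**Figure D5:**
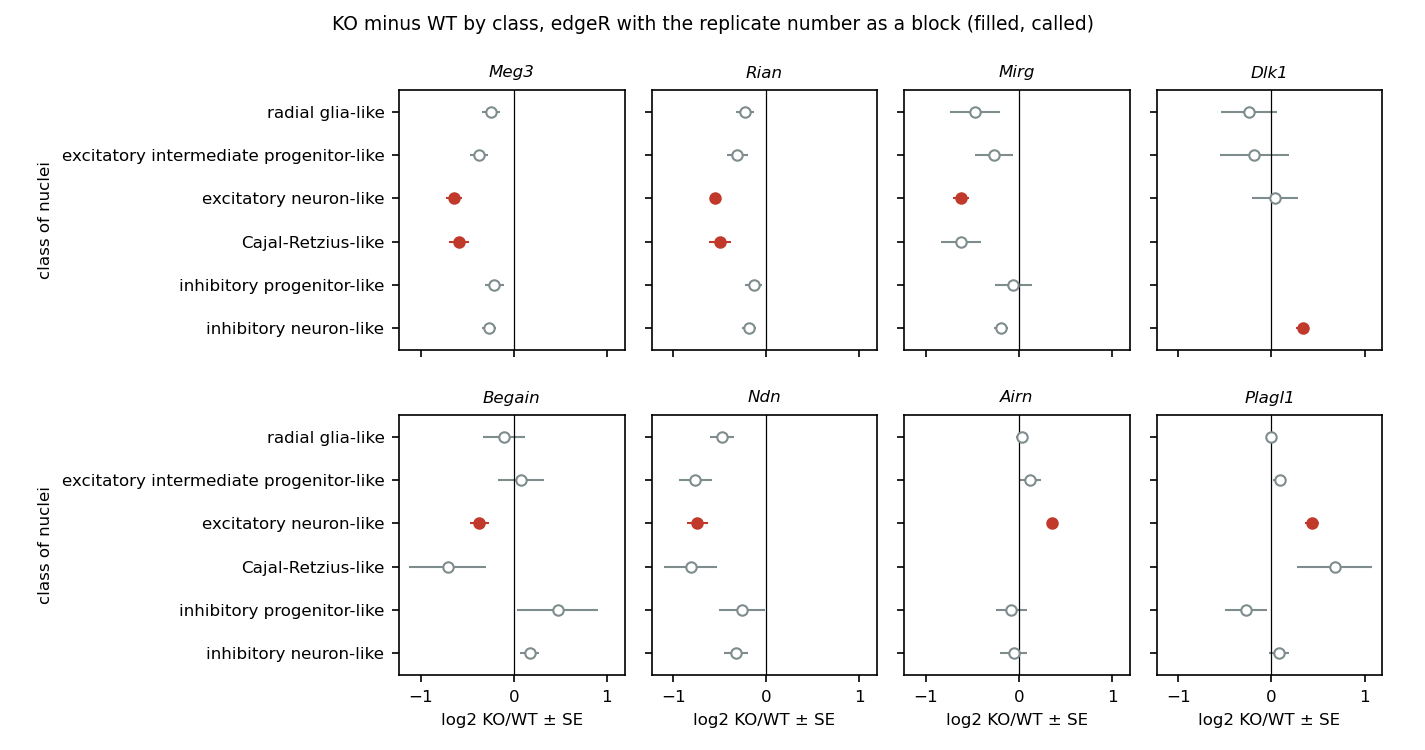
Log2 KO/WT ± SE of 8 imprinted genes in 6 classes (edgeR with the replicate number as a block), filled red where called and open grey where tested but not called, with no point where the gene was not tested. Meg3, Rian and Mirg lie left of 0 in all 6 classes and are furthest left in excitatory neuron-like and Cajal-Retzius-like nuclei, and Airn is called in excitatory neuron-like nuclei and lies close to 0 in the inhibitory classes. The Meg3 level of radial glia-like nuclei is near the background given by Gad2.

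The difference in response between classes was tested as an interaction of genotype and class within animals. For KO against WT, 0 of the 37 to 39 imprinted genes tested passed an adjusted p of 0.05 (edgeR) in any of the 4 pairs of classes compared. Of all genes, 71 of 19369 passed for excitatory neurons against radial glia, 25 of 18826 against inhibitory neurons and 68 of 17946 against Cajal-Retzius-like nuclei. Between inhibitory neurons and inhibitory progenitors 0 of 15819 did. With so few of all genes passing, the 0 does not set imprinted genes apart from other genes. The Meg3 response differed by -0.38 log2 units between excitatory and inhibitory neuron-like nuclei (SE 0.08, unadjusted p 0.000277, adjusted p 0.103, edgeR). Against radial glia, the Airn response differed by 0.33 (SE 0.07, adjusted p 0.0532, edgeR) and the Meg3 response by -0.38 (adjusted p 0.0950). The Meg3 level of radial glia-like nuclei is near the Gad2 background given above. The calls of single classes are therefore not shown to be particular to them.

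Between KO and WT no imprinted gene was called by edgeR, with or without the block, or by DESeq2 in radial glia-like nuclei (1 of 35 at an unadjusted p under 0.05 by edgeR, 0.00597% of genes called with the block), in nuclei like excitatory intermediate progenitors (4 of 33, 0.0733%), in those like inhibitory progenitors (0 of 32) or in choroid plexus and hem-like nuclei (1 of 16). Over all genes 2.78%, 4.56%, 2.57% and 3.08% were at an unadjusted p under 0.05 in these classes. Over all nuclei 0 of 39 were called (0 of 25668 genes by edgeR with 5 of 39 at an unadjusted p under 0.05 beside 5.71% of genes, 0 of 39 by DESeq2 beside 0.0597% of genes), and with the block Ndn (-0.56, SE 0.11, adjusted p 0.0449, edgeR; 0.557% of genes). Ndn stood there at 13.2, 22.2 and 25.3 CPM in WT, 11.04, 19.8 and 23.7 in Het and 8.09, 12.1 and 22.4 in KO, lower in KO than in WT within each of the 3 numbers. The KO to WT ratio was 0.612, 0.544 and 0.885 in replicates 1 to 3. Separate fits of the runs gave -0.34 in run 1 and -0.50 in run 2, and no setting but the block called it.

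A list of 46 other genes reported as imprinted or lying in imprinted domains, of which 34 were tested in excitatory neuron-like nuclei, had 0 calls between KO and WT (1.33% of all genes) and 1 with the block (7.37%), Sfmbt2 (0.55, adjusted p 0.00412, edgeR), a polycomb-like gene, higher in KO. Sfmbt2 was also called with the block in inhibitory neuron-like nuclei (0.64, adjusted p 0.00550, edgeR). Of 29 factors of imprint maintenance and DNA methylation, 1 was called, beside the same 1.33% of genes: Tet2, which oxidises methylcytosine, higher in KO (0.37, adjusted p 0.0122, edgeR). The block called 3 of the 29, beside 7.37% of genes, keeping Tet2 and adding Dnmt1, the maintenance methyltransferase (-0.23, adjusted p 0.0235), and Dnmt3a, a de novo methyltransferase (-0.39, adjusted p 0.000349), both lower in KO (edgeR). The median log2 fold change of the 29 was -0.02, against -0.01 over all genes.

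Of 29 maintenance factors, 1 was higher and 5 were lower in excitatory neuron-like than in radial glia-like nuclei, beside 17% of all genes higher and 16.1% lower, with Hells (-3.32) and Uhrf1 (-3.20), which help DNMT1 at replication, furthest down, Dnmt3a at -2.07 and Zfp57 the 1 that was higher, at 2.44. Of the 46 other genes listed as imprinted or lying in imprinted domains, 32 were tested in that comparison, with 5 higher and 11 lower beside the same shares of all genes, such as Rasgrf1 (5.06), a Ras exchange factor gene, and Phactr2 (-3.46), a phosphatase regulator gene. Dio3, the thyroid hormone deiodinase gene at the far end of the Meg3 domain, was lower in excitatory neurons at -2.73, opposite in direction to Meg3.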

How the data were processed

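The study's methods state that reads were mapped to mm10 and counted per nucleus with ScaleRna v1.4, and nuclei were called with the CellFinder step of ScaleRna v1.5. The authors deposited estimated counts (UMIs, 6.70 to 8.71% of entries not whole) for 55335 genes per library, and the submitters' processing notes also name Seurat 4.3.0, DESeq2 1.38.3 and Scanpy 1.12.0. No source used here gives the annotation release or the use of strand. Kept nuclei had 800 to 6000 UMIs, 300 to 3000 detected genes, no more than 1% of UMIs from mitochondria and a log ratio of genes to UMIs of 0.9 or higher, and the 5% with the highest Scrublet scores in each library were dropped as doublets. Clustering used scanpy 1.11.5 (3000 variable genes without the imprinted genes, Myt1l and the X and Y genes, 50 components, 20 neighbours, Leiden resolution 1). The rule that named clusters from markers was set after the clusters were seen.

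Counts were summed per animal and class, rounded, and tested two-sided with edgeR 4.0.16 (R 4.3.3, filterByExpr, TMM, Benjamini-Hochberg adjustment over all genes of a fit). The script was tested on simulated data. Alternatives were DESeq2 1.42.0, other scaling, filters, runs and samples. The interaction test was added after the data were seen. Same-numbered animals deviated together in excitatory neuron-like nuclei (correlations of 0.146 to 0.392 in 9 of 9 pairs, all over 0.1), and 9 of 9 pairs did so over all nuclei and in nuclei like inhibitory neurons, radial glia and excitatory intermediate progenitors, so the numbers were taken as pairing the animals, although the labels give no litter. In inhibitory progenitor-like nuclei 6 of 9 pairs were over 0.1, in Cajal-Retzius-like nuclei 4 and in choroid plexus and hem-like nuclei 2. The methods name 3 litters without tying embryos to them, and p-values measure the spread between animals. Intervals cover counting error only. The imprinted genes and gene lists were chosen with earlier results of these data known. Per-animal values are given for genes called between genotypes by edgeR with or without the replicate block and for genes leading a comparison of classes (at least 20 CPM in the higher class), and genes under 5 CPM by count. Gene positions follow GENCODE on GRCm38, and promoter and microRNA sequences RefSeq on GRCm38.p6.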

Additional observations from a re-analysis of the deposited data

How the results depend on the processing

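The 3 comparisons between classes kept their counts of called imprinted genes within 1.5 times under all alternatives run, with 17 to 18 between the neuronal classes, 19 to 20 against radial glia and 18 to 20 along the inhibitory lineage when 1 animal was left out. The genotype counts moved more. For KO against WT in excitatory neuron-like nuclei (4 imprinted genes), fitting only the 6 animals compared gave 2, the replicate block 7 and run 1 alone 0, and leaving out 1 animal gave 0 to 5, with 0 without KO replicate 2, 1 without WT replicate 1, WT replicate 3 or KO replicate 1 and 2 without Het replicate 3. The cause was not tested. Over all genes that comparison called 251, the block 1391 and DESeq2 396. For KO against Het there (0), DESeq2 gave 2, no filter on low counts 5 (Magel2, Meg3, Mirg, Ndn and Rian) and the replicate block 4, over all genes 2, 58, 185 and 251. For KO against WT in inhibitory neuron-like nuclei (0), no filter gave 1 (Meg3, -0.27) and the replicate block 1 (Dlk1), and in excitatory intermediate progenitor-like nuclei (0) no filter gave 2 (Meg3, -0.37, and Ndn, -0.73). The share of all genes called with no filter is not given for these classes or Cajal-Retzius-like nuclei, so these calls have no background beside them. That setting lowered the adjusted p of Meg3 in excitatory neurons (KO against WT) from 0.0421 to 2.99e-22 (edgeR). In Cajal-Retzius-like nuclei KO against WT (1) became 2 with DESeq2, no filter, the replicate block or no upper limits on UMIs and genes, and 0 to 2 when 1 animal was left out, with 0 without WT replicate 1, WT replicate 3 or KO replicate 2 and 2 without WT replicate 2 or KO replicate 1. KO against Het there (0) became 1 with DESeq2 or run 2 alone and 2 with no filter or the replicate block, and run 1 alone was not run for want of nuclei. Over all nuclei KO against WT (0) became 1 with the replicate block. Of the imprinted genes called in a comparison by edgeR with or without the replicate block, 1066 values under these settings kept their direction and side of the threshold, 34 lost a call, 30 gained one and 0 reversed. Apart from these, no filter called Magel2 between KO and Het in excitatory neurons and, between KO and WT, Meg3 in inhibitory neurons and Meg3 and Ndn in excitatory intermediate progenitors, and leaving out KO replicate 1 called Snhg14 in Cajal-Retzius-like nuclei. Each animal gave 147 to 311 nuclei of the Cajal-Retzius-like class and 21 to 82 of the choroid plexus and hem-like class.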
